A study of Mus musculus with 20 samples.

Results

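The axon guidance ligands and receptors examined here are 64 of the 18194 genes measured. They were taken by symbol: every gene whose only platform symbol starts with Sema, Plxn, Robo or Slit (Slitrk genes left out), the neuropilins Nrp1 and Nrp2, and every numbered ephrin (Efna, Efnb), Eph receptor (Epha, Ephb) and netrin (Ntn). Semaphorins, plexins and neuropilins account for 32 of them, ephrins and Eph receptors for 21, Slits and Robos for 7 and netrins for 4. By role they are 35 ligands, 28 receptors and Plxna4os1, a transcript antisense to Plxna4. Gene expression was measured on 20 Affymetrix arrays of motor and of sensory cortex from 10 female C57Bl6 mice, 6 with experimental autoimmune encephalomyelitis (EAE), an autoimmune disease against myelin that serves as a model of multiple sclerosis, and 4 healthy cage mates. The EAE mice had received 100 µg of the myelin oligodendrocyte glycoprotein peptide MOG35-55 under the skin of the rear flanks and 50 µg at the tail base when 8 to 12 weeks old, with 400 ng of pertussis toxin on days 0 and 3, and their average grades were 2.50 to 3.50. Tissue was taken on days 18 to 21 from mice with paralysis of the hindlimbs. The healthy mice are listed with the same 8 to 12 weeks, the age at injection and not at tissue collection. No injection is described for them, so immunisation and disease cannot be told apart between EAE and healthy mice. The 4 groups are motor cortex of EAE mice (n = 6), motor cortex of healthy mice (n = 4), sensory cortex of the same EAE mice (n = 6) and sensory cortex of the same healthy mice (n = 4), and each of 2 cohorts holds 3 EAE and 2 healthy mice.

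Semaphorins signal through plexins, with neuropilins as co-receptors of the secreted class 3 semaphorins. Slits signal through Robos, netrins through Dcc and Unc5 receptors, and ephrins through Eph receptors on the neighbouring cell, which can also signal back through the ephrin. During development these pairs steer axons by attraction and repulsion; in the adult brain they remain on neurons, glia and vessels and are known for roles in synapse maintenance, oligodendrocyte differentiation, vessel stability and immune cell contact.

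The stretches around the transcription start are shown for 4 members that recur in the results below, none of which uses the sequences. Slit2 and Sema7a were lower in EAE in each region, Plxnd1 differed both in EAE and between regions, and Ntn5 differed by the widest margin between regions. Each is 300 bases from RefSeq on GRCm38.p6, 250 before and 50 after the start, 5′ to 3′ on the gene's strand, with the GC box (GGGCGG, or CCGCCC on the other strand) in capitals.
Slit2 promoter, chr5:47982905-47983204, plus strand: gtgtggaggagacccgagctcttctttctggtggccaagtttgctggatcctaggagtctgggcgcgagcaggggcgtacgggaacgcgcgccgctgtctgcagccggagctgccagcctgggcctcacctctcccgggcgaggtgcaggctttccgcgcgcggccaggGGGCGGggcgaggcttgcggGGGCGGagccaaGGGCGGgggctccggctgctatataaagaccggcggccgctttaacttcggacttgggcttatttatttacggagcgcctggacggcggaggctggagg
Sema7a promoter, chr9:57939862-57940161, plus strand: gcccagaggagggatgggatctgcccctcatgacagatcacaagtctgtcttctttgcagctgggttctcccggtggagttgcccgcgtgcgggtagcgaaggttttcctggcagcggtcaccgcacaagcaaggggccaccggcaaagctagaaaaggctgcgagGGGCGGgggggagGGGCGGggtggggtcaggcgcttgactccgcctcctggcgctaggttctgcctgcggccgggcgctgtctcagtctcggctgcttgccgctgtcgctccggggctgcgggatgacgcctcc
Plxnd1 promoter, chr6:115994956-115995255, minus strand: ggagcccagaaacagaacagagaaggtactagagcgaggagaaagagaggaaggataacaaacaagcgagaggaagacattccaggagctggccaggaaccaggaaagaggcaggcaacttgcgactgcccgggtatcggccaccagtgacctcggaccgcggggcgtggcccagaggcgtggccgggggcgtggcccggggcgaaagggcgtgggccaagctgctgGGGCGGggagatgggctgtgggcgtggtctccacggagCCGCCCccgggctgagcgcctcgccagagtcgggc
Ntn5 promoter, chr7:45683772-45684071, plus strand: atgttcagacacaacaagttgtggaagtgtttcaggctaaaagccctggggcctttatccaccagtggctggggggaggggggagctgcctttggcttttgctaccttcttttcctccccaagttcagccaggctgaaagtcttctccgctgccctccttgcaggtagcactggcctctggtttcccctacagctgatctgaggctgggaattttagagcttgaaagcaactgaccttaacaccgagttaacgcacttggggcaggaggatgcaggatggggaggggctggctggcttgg
The Slit2 stretch holds 3 GC boxes and 30 CpG dinucleotides at 68.0% GC, that of Sema7a 2 boxes and 23 CpG at 67.3% GC, and that of Plxnd1 2 boxes and 23 CpG at 67.0% GC. The Ntn5 stretch holds 0 GC boxes and 3 CpG at 55.3% GC. A promoter was found for 55 of the 64 members and for 14369 of all genes tested, each of the same length. Of the members, 41 of 55 (74.5%) held the GC box on either strand, against 54.1% of all genes. Among the 13 with a promoter that were called lower in EAE over both regions (below), 8 held it. CCAAT was in 15 (27.3%) of the members' promoters against 38.2%, TATAAA in 2 (3.64%) against 9.85%, and AGAACA, the half-site of the glucocorticoid receptor, in 4 (7.27%) against 14.5%, all on both strands. The cyclic AMP element TGACGTCA was in 1 member (1.82%) against 2.69% of genes. The median GC content was 64.3% in members and 58.7% in all genes. These are descriptions of letters in a window and say nothing of which factors act there.

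Values are log2 expression as deposited, with array medians of 8.22 to 8.32, and levels are not compared between genes, since each gene has its own probes. The probe set with the highest mean stands for a gene; 22 members have 1 probe set and the 64 members have 143 together. The members Ntn3, Plxna4os1, Robo2 and Sema3d, 4 in all, have means below the 25th percentile of gene means (7.44), where array background can hide differences. Within a group the SD of a member was typically 0.10 to 0.13 (medians over members), with the widest at 0.51 for Epha3 in sensory cortex of EAE mice. The mean level of 5 excitatory neuron genes was 12.2 to 12.5 in EAE motor and 12.2 to 12.4 in healthy motor arrays. In sensory cortex it was 12.1 to 12.3 in EAE and 12.0 to 12.3 in healthy arrays. These ranges overlap and no other tissue was measured, so they do not test the tissue label or tell motor from sensory cortex. Mice were few, so the number of animals limits the precision of every value.

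Across the cortex, a set of guidance genes was lower in EAE mice, among them the repellent Slit2, the transmembrane semaphorins Sema5a, Sema4d and Sema5b and the membrane-anchored Sema7a, at 0.712 to 0.811 times the level of healthy mice. With each mouse's 2 regions averaged, limma with Benjamini-Hochberg adjustment over all 18194 genes called 17 of the 64 members at an adjusted p under 0.05, of which 16 were lower and 1, the Eph receptor gene Epha10, was higher. The background is 7.87% of all genes called, 5.64% lower and 2.23% higher, against 26.6% of the members. After quantile normalization of the arrays 10 members were called, 2 higher and 8 lower, against 5.79% of all genes. The median difference of EAE minus healthy mice was -0.08 over the 64 members and 0.00 over all genes, and 45 members lay below 0, against 49.9% of all genes. In 12 members every EAE mouse lay below every healthy mouse, which 6.93% of all genes did, and in 1 member every EAE mouse lay above, as in 3.22% of all genes. The calls fell on 10 of 35 ligands, all lower, and on 7 of 28 receptors, 6 of them lower. In these bulk samples fewer cells of a type and less RNA per cell cannot be told apart. Both arrays processed on a second day are from healthy mice, and the EAE fits have no term for day. For these arrays day and the healthy condition cannot be told apart.

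Among ligands, Slit2, a secreted repellent that binds Robo receptors, was measured at 10.19, 10.28 and 10.59 (lowest, median and highest, here and for the 6 EAE mice below) in motor cortex of EAE mice and at 10.73, 10.57, 10.84 and 10.81 in that of healthy mice. In sensory cortex it was at 10.08, 10.23 and 10.46 in EAE mice, against 10.78, 10.66, 10.74 and 10.87 in healthy mice. All EAE values lay below all healthy values in sensory cortex, and in motor cortex EAE mouse 1 alone lay among the healthy values. Averaged over regions Slit2 fell by 0.47 ± 0.07 on the log2 scale (SE), a level 0.721 times that of healthy mice, with a limma adjusted p of 0.00596. Another of its probe sets stood at -0.52 and the third at -0.23 (unadjusted p 0.0011 and 0.047). Of the other Slits, Slit1 stood at 0.19 ± 0.06 (adjusted p 0.0678) and Slit3 at 0.18, neither past the threshold.

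Sema7a, a semaphorin held in the membrane by a lipid anchor that acts through plexin C1 and integrins, read 12.03, 12.16 and 12.29 in motor cortex of EAE mice, against 12.41, 12.53, 12.42 and 12.57 in healthy mice. In sensory cortex it read 12.39, 12.55 and 12.62 in EAE mice, against 12.87, 12.74, 12.86 and 12.77 in healthy mice. The groups did not overlap in either region. The averaged fall was 0.30 ± 0.04 (SE, log2; limma adjusted p 0.00442), and the second probe set stood at -0.58. Sema4d, a ligand of plexin B1 found on oligodendrocytes and lymphocytes, had 9.30, 9.44 and 9.76 in motor cortex of EAE mice, against 9.90, 10.10, 9.93 and 9.90 in healthy mice. Its sensory values were 9.14, 9.37 and 9.48 in EAE mice, against 9.50, 9.72, 9.89 and 10.00 in healthy mice. These groups were also apart in each region, and the averaged fall was 0.45 ± 0.07 (limma adjusted p 0.00634). Its 2 dimmer probe sets stood at -0.13 and -0.01.

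Sema5a, a transmembrane semaphorin with thrombospondin repeats, was at 9.25, 9.42 and 9.66 in motor cortex of EAE mice, against 10.14, 9.82, 10.05 and 9.63 in healthy mice. Sensory cortex gave 8.45, 8.86 and 9.09 in EAE mice, against 9.26, 9.54, 9.40 and 9.29 in healthy mice. The motor groups touched through healthy mouse 4 and the sensory groups were apart. Sema5a fell by 0.49 ± 0.07 over both regions (limma adjusted p 0.00388), the smallest adjusted p among the members. Its relative Sema5b read 8.11, 8.17 and 8.49 in motor cortex of EAE mice, against 8.67, 9.06, 8.56 and 8.39 in healthy mice, overlapping only through EAE mouse 2. In sensory cortex it read 8.06, 8.41 and 8.66 in EAE mice, against 8.63, 8.68, 8.45 and 8.49 in healthy mice, with EAE mice 1 and 3 among the healthy values. Sema5b fell by 0.33 ± 0.05 over both regions (limma adjusted p 0.00634). Its other probe set stood at -0.44. Of the 13 transmembrane and anchored semaphorins 6 were called lower, the remaining calls being Sema6a (fell by 0.18 ± 0.05, adjusted p 0.044) and Sema6d (fell by 0.18 ± 0.05, adjusted p 0.0447), which bind class A plexins. None of the 7 secreted class 3 semaphorins was called: they spanned -0.17 to 0.08, with Sema3a, which collapses growth cones, at -0.11 ± 0.06 and Sema3g at 0.08 ± 0.08.

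Of the 4 netrins 2 were lower. Ntn1, the ligand of Dcc, averaged 8.63 ± 0.05 over the EAE mice and 8.86 ± 0.06 over the healthy mice (SD, n = 6 and 4), with all 6 EAE mice below all 4 healthy mice. It fell by 0.22 ± 0.04 (SE, log2; limma adjusted p 0.00904), but its dimmer probe set stood at 0.06. Ntn4, a laminin-related netrin of basement membranes, read 8.12, 8.40 and 8.65 in motor cortex of EAE mice, against 8.80, 8.89, 8.70 and 8.71 in healthy mice. In sensory cortex it read 8.69, 8.88 and 9.07 in EAE mice, against 9.14, 9.41, 9.20 and 9.14 in healthy mice, so the groups were apart in both regions, and it fell by 0.35 ± 0.08 (adjusted p 0.0231). Among ephrins, Efnb3, a midline barrier to corticospinal axons, averaged 10.77 ± 0.09 in EAE and 10.97 ± 0.05 in healthy mice (SD), fell by 0.21 ± 0.05 (SE, adjusted p 0.032) and was the only ephrin of 8 called. Efna1 (0.23 ± 0.14), Efna5 (-0.09 ± 0.07) and Efnb2 (0.03 ± 0.04) were not past the threshold.

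Among the 28 receptors, 7 were called. Ephb6, an Eph receptor without kinase activity, had 11.49, 11.61 and 11.71 in motor cortex of EAE mice, against 11.96, 11.79, 11.84 and 11.92 in healthy mice, apart from each other. Its sensory values, 11.04, 11.31 and 11.55 in EAE mice against 11.38, 11.42, 11.65 and 11.70 in healthy mice, overlapped through EAE mouse 5. It fell by 0.27 ± 0.05 over both regions (limma adjusted p 0.0118). Ephb1, a receptor of ephrin-Bs, averaged 10.73 ± 0.10 in EAE and 11.01 ± 0.13 in healthy mice (SD) and fell by 0.28 ± 0.06 (SE, adjusted p 0.0252). The 2 remaining EphB receptors were not called, with Ephb3 at -0.27 (unadjusted p 0.00497) and Ephb4 at -0.04. Epha3 fell by 0.55 ± 0.15 (adjusted p 0.0432), with EAE mouse 1 at 8.62 and the other EAE mice at 7.79 to 8.16, against 8.69, 8.57, 8.75 and 8.44 in healthy mice. Epha7 fell by 0.27 ± 0.06 (adjusted p 0.0303), and its other 3 probe sets stood at -0.19 to -0.26.

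Epha10, the other Eph receptor that lacks kinase activity, was the only member called higher on the values as deposited. It read 10.32, 10.51 and 10.58 in motor cortex of EAE mice, against 10.27, 10.32, 10.27 and 10.35 in healthy mice, and 10.52, 10.60 and 10.72 in sensory cortex of EAE mice, against 10.28, 10.52, 10.43 and 10.37 in healthy mice. Averaged over regions the groups were apart, with a rise of 0.20 ± 0.05 (limma adjusted p 0.032). The motor groups overlapped through EAE mouse 1, and Epha10 has no other probe set. Epha4, a broad ephrin receptor, stood at 0.08 ± 0.05 and was not called. Among the members called, some dimmer probe sets had the opposite sign over both regions: Sema5a (0.09, beside -0.23 and -0.46), Sema6a (0.07, beside -0.15), Sema6d (0.13 and 0.02, beside -0.24), Epha3 (0.09, beside -0.08 and -0.54) and Ntn1 (0.06), none of them at an unadjusted p under 0.05.

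Of 9 plexins 2 were called. Plxnb3, a plexin of oligodendrocytes, read 8.97, 9.08 and 9.14 in motor cortex of EAE mice, against 9.34, 9.59, 9.20 and 9.31 in healthy mice, and these groups were apart. Its sensory values were 8.75, 9.09 and 9.23 in EAE mice, against 9.30, 9.11, 9.09 and 9.37 in healthy mice, and these overlapped. It fell by 0.24 ± 0.05 over both regions (limma adjusted p 0.0238). Plxnd1, the receptor of Sema3e on vessels and some neurons, had 10.33, 10.46 and 10.69 in motor cortex of EAE mice, against 10.66, 10.75, 10.66 and 10.77 in healthy mice. Its sensory values were 10.93, 11.04 and 11.12 in EAE mice, against 11.11, 11.42, 11.36 and 11.35 in healthy mice, with overlap through EAE mouse 3 in motor and EAE mouse 1 in sensory cortex, and it fell by 0.25 ± 0.06 (adjusted p 0.0288). Plxna4, a partner of neuropilin 1, stood at -0.05 ± 0.05 and Plxnb1, the receptor of Sema4d, at 0.04 ± 0.04, so the receptor of a ligand that fell was not itself past the threshold. Neither neuropilin was called, with Nrp1 at -0.30 ± 0.11 (adjusted p 0.112) and Nrp2 at -0.08 ± 0.08. No Robo was called either, although Robo3, a divergent Robo of commissural axons, stood at -0.29 ± 0.09 (adjusted p 0.0707) with all 6 EAE mice below the healthy mice, beside Robo1 at -0.15 ± 0.06 and the endothelial Robo4 at 0.08 ± 0.05.

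**Figure D1:**
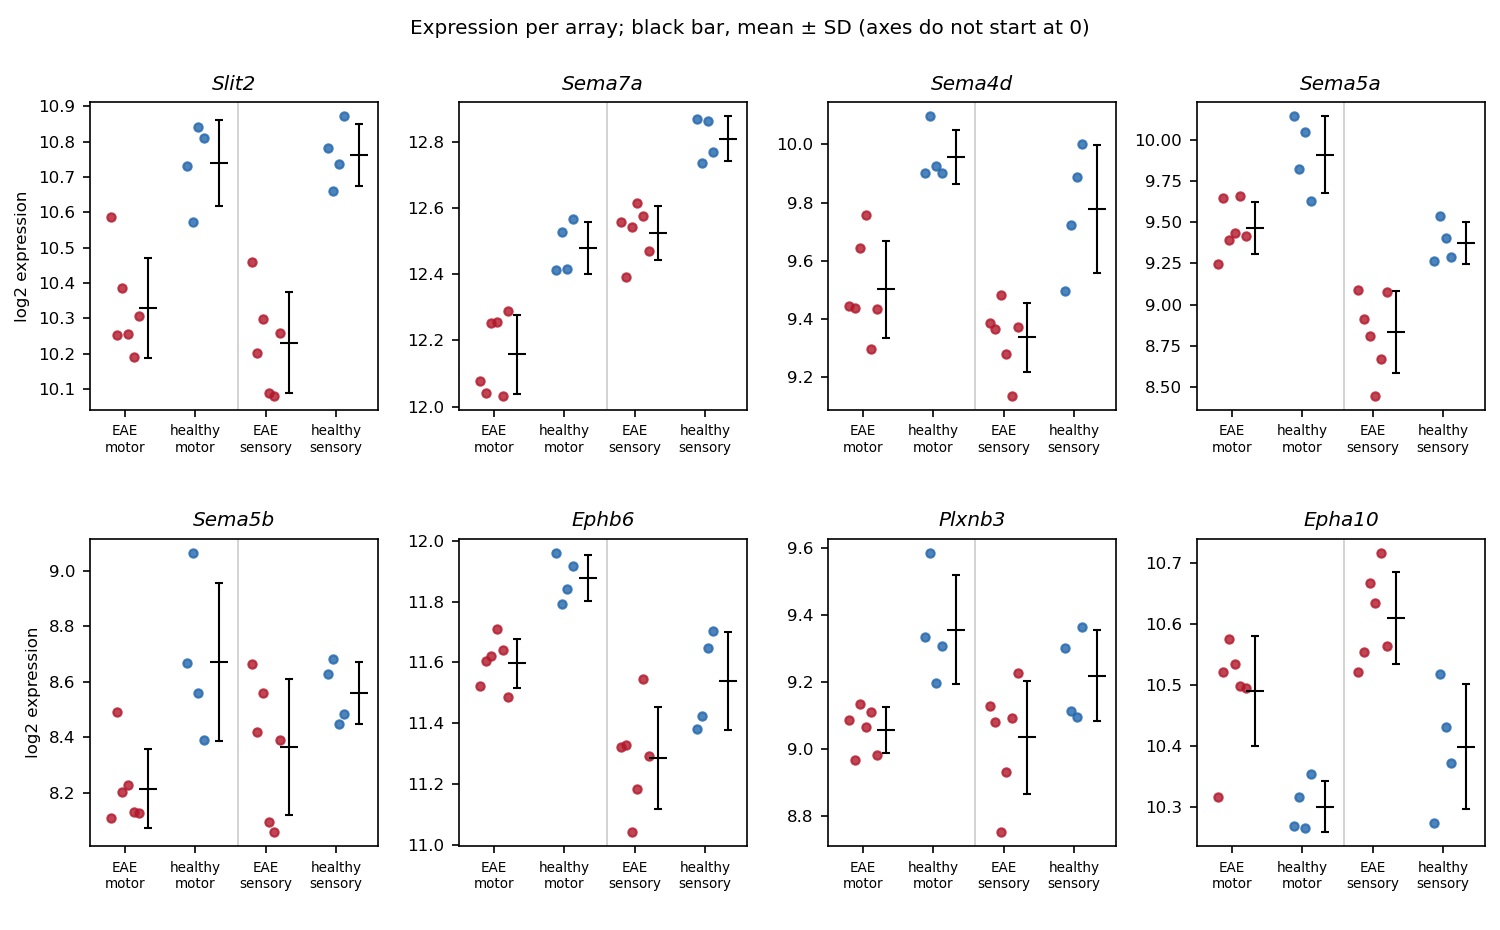
Expression on each array (log2, vertical axis) of 8 members in the 4 groups, with EAE in red, healthy in blue and the mean ± SD as a black bar beside the points. Sema7a and Sema4d are lower in every EAE array than in any healthy array of the same region, Slit2 is so in sensory cortex, and Epha10 is the member that is higher in EAE.

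The calls over both regions also depended on which mice were present. Where no count of all genes stands beside a count of members below, a change in the members cannot be told from a change over all genes. Leaving out 1 mouse gave 7 to 18 called members, and 6 of the 17 (Ntn1, Sema4d, Sema5a, Sema5b, Sema7a and Slit2) were called whichever mouse was left out; the count was 8 without EAE mouse 5, healthy mouse 1 or healthy mouse 2, 9 without healthy mouse 3 and 7 without healthy mouse 4. Cohort 1 alone gave 0 calls and cohort 2 alone 3. All 17 kept their sign in each cohort, which is no separate test, since both cohorts together gave the calls. Without healthy mice 1 and 4, each of which has an array processed on a second day, 0 members and 6 of all genes were called.

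Markers of other cell types moved in the same comparison, in which 5.64% of all genes were called lower and 2.23% higher. Over both regions, oligodendrocyte markers were called lower for 5 of 9 genes (median -0.38), microglial markers for 5 of 7 (median -0.36) and endothelial markers for 6 of 9 (median -0.28), whereas 4 of 5 infiltrating myeloid markers were higher (median 0.66). The mean level of the oligodendrocyte list was 10.9 to 11.1 in EAE motor, 11.2 to 11.6 in healthy motor, 10.8 to 11.4 in EAE sensory and 11.3 to 11.4 in healthy sensory arrays. For the endothelial list it was 9.35 to 9.59 in EAE motor, 9.62 to 9.80 in healthy motor, 9.39 to 9.62 in EAE sensory and 9.79 to 9.90 in healthy sensory arrays, with no overlap. The microglial list stood at 9.69 to 9.89 in EAE motor, 10.2 to 10.4 in healthy motor, 9.41 to 10.01 in EAE sensory and 10.1 to 10.3 in healthy sensory arrays. The myeloid list stood at 8.14 to 8.55 in EAE motor, 7.51 to 7.62 in healthy motor, 7.91 to 9.29 in EAE sensory and 7.40 to 7.61 in healthy sensory arrays. Excitatory neuron markers were called in 0 of 5 (median 0.04) and astrocyte markers in 1 of 8, Gjb6, which rose by 0.62 ± 0.08. Gfap stood higher, at 0.81 ± 0.23, but missed the threshold (limma adjusted p 0.0534). Of the 8 astrocyte markers 3 lay below 0 (median 0.08). T cell markers were higher in 2 of 5 and inhibitory neuron markers had 1 of 6 higher and 1 of 6 lower, while mural markers (1 of 7) and meningeal markers (1 of 6) had 1 gene lower each. Precursor, layer, striatal and choroid plexus lists had 0 calls. The lowest value of any probe set on these arrays is 3.79 (log2), so a marker value above 0 does not show that its cell type was present. The part of these cell types in the fall of Plxnb3, Sema4d, Plxnd1, Ntn4 or any other member was not tested.

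Region by region, the same direction appeared with fewer calls. In motor cortex 6 members were called, all lower in EAE (after quantile normalization 4, of which 1 was higher and 3 lower): Sema4d (fell by 0.45 ± 0.09), Slit2 (fell by 0.41 ± 0.08), Sema5b (fell by 0.45 ± 0.10), Sema7a (fell by 0.32 ± 0.07), Ephb6 (fell by 0.28 ± 0.06) and Plxnb3 (fell by 0.30 ± 0.07), with limma adjusted p of 0.0189 to 0.0481. All genes gave 2.25% called, 1.74% lower and 0.517% higher, and 48 of the 64 members lay below 0, against 53.1% of all genes. In 5 members every EAE array lay below every healthy array, as in 4.19% of all genes, and in 0 members above, against 1.48%. In sensory cortex 4 members were called, all lower: Slit2 (fell by 0.53 ± 0.08, limma adjusted p 0.014), Sema7a (fell by 0.28 ± 0.06), Sema6a (fell by 0.27 ± 0.05) and Sema5a (fell by 0.54 ± 0.12). The background there is 2.41% of all genes called, 1.51% lower and 0.901% higher, and 43 members lay below 0, against 49.7%. Sema4d came next in sensory cortex, at -0.44 ± 0.10 with an adjusted p of 0.0505. In 9 members all EAE sensory arrays lay below all healthy ones and in 1 member above, against 4.04% and 2.45% of all genes.

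Slit2 and Sema7a were called in each region on its own. All 13 transmembrane and anchored semaphorins lay below 0 in motor cortex (median -0.10), and 11 of 13 in sensory cortex (median -0.16). The 4 EphB receptors lay below 0 in both regions (medians -0.21 in motor and -0.29 in sensory cortex), while the 9 EphA receptors were centred near 0 (0.01 and -0.03). Leaving out 1 mouse gave 0 to 5 calls in motor cortex (0 without healthy mouse 1 or 3, 1 without EAE mouse 5 or healthy mouse 2, 2 without EAE mouse 2 or healthy mouse 4, 3 without EAE mouse 3 or 6) and 0 to 11 in sensory cortex (0 without healthy mouse 3 or 4, 1 without EAE mouse 2, 4 or 5 or healthy mouse 2, 2 without EAE mouse 6, 11 without EAE mouse 1). Within cohort 1 and cohort 2 the counts were 0 and 0 in motor and 0 and 2 in sensory cortex. No share of all genes stands beside these counts or those with 1 mouse left out. All 6 and all 4 called members kept their sign, which is no separate test, since the calls came from these same mice.

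**Figure D2:**
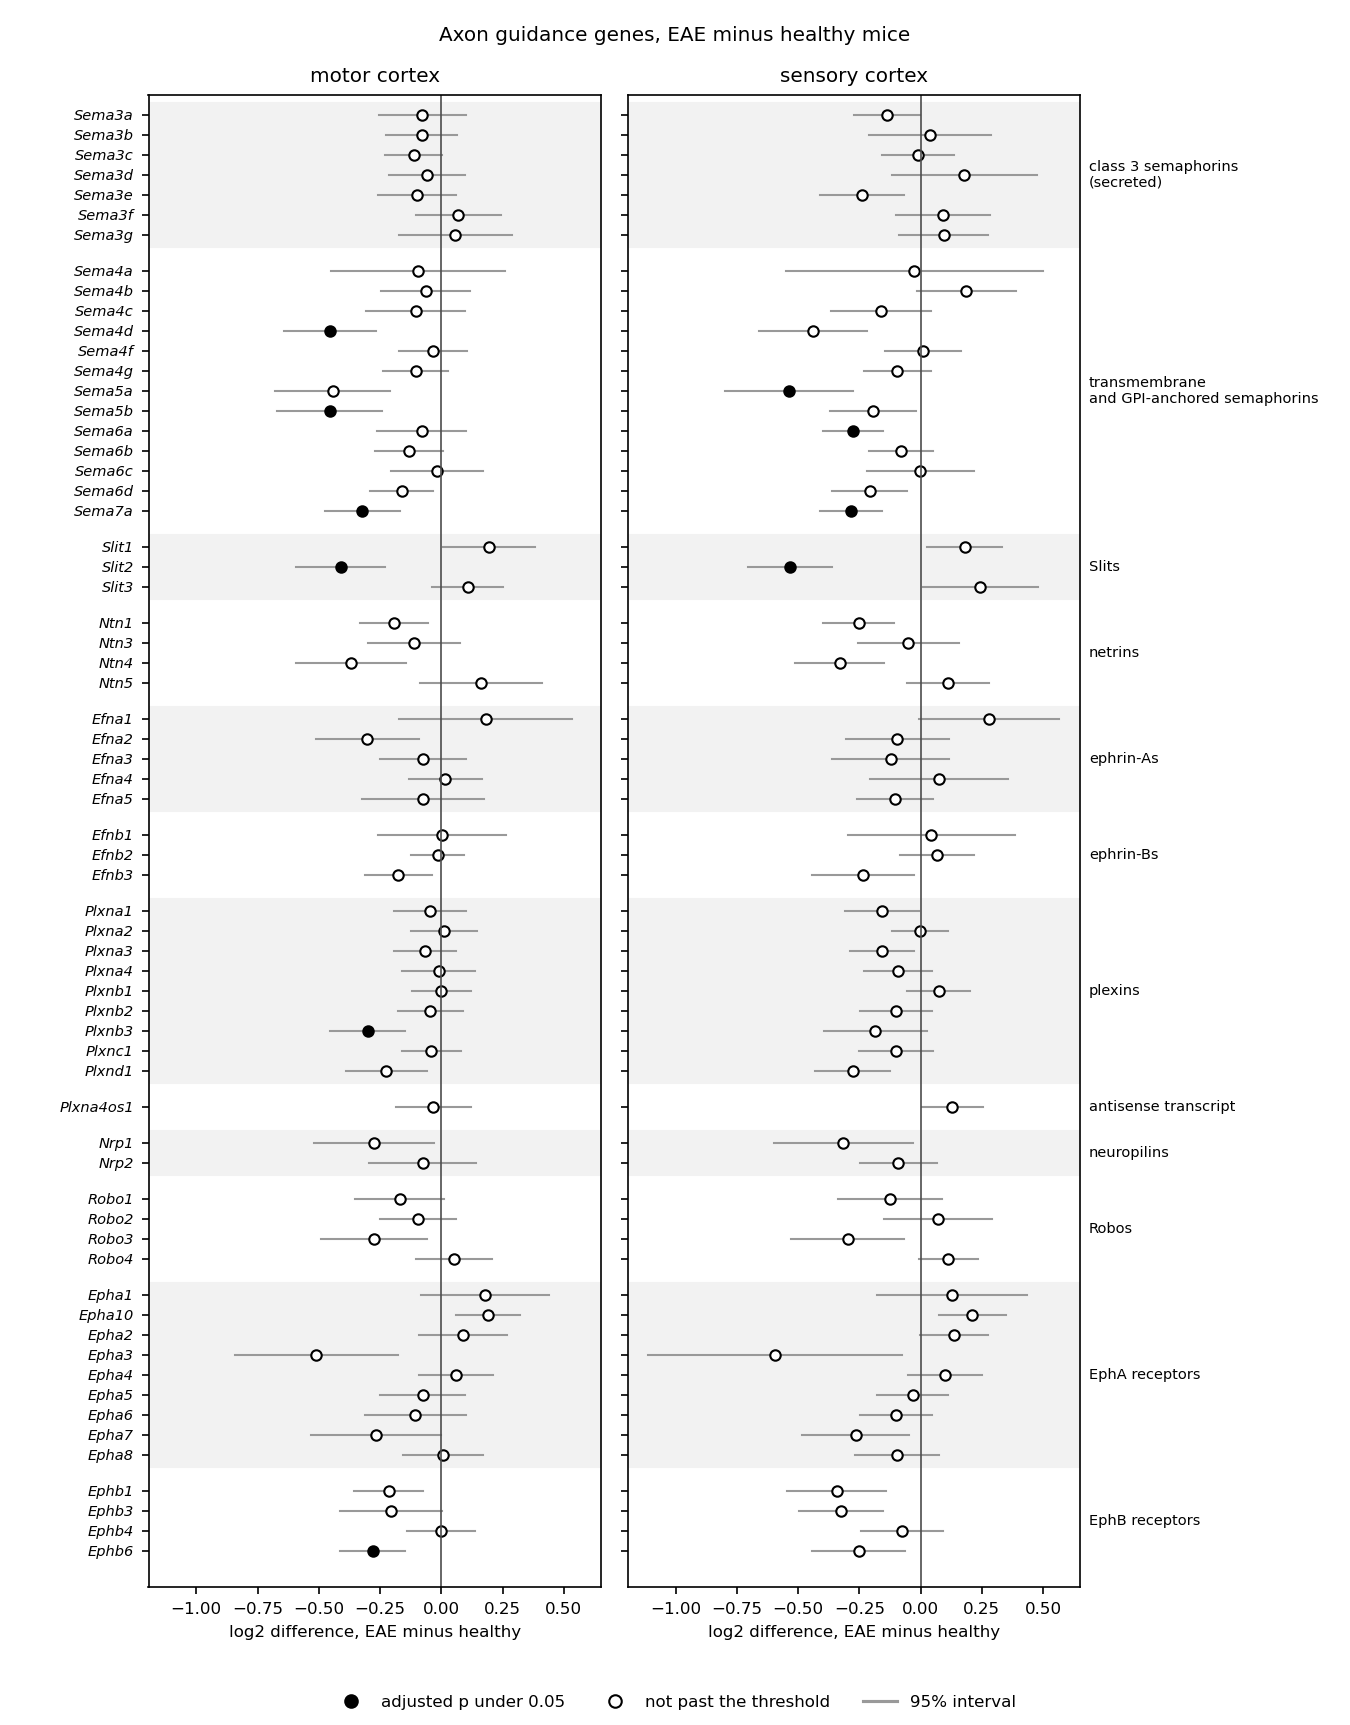
Log2 difference of EAE minus healthy mice (horizontal axis) for all 64 members, with 95% intervals, in motor cortex (left) and sensory cortex (right), grouped by family; filled points have an adjusted p under 0.05. The filled points, 6 in motor and 4 in sensory cortex, all lie left of 0.

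Whether EAE acted differently in the regions was asked by fitting each mouse's motor minus sensory value. No member was called, and limma called 0 of all 18194 genes; at an unadjusted p under 0.05 there was 1 member, against 422 genes (2.32%). That member was Sema4b, a transmembrane semaphorin, with a motor minus sensory difference of effects of -0.25 ± 0.11 (SE, log2; unadjusted p 0.0415). Its EAE minus healthy value was -0.06 ± 0.08 for motor cortex and 0.19 ± 0.09 for sensory cortex, neither past the threshold. The next members were Slit2 (0.12 ± 0.06, unadjusted p 0.0821), Sema6a (0.19 ± 0.11), Sema5b (-0.26 ± 0.15) and the dim antisense transcript Plxna4os1 (-0.16 ± 0.09). For Slit2 the 95% interval ran from -0.02 to 0.26, and for Sema5b from -0.58 to 0.06. A p that misses the threshold does not show that the regions responded alike. The motor and sensory values of EAE minus healthy had the same sign in 55 of 64 members; they come from the same mice.

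Motor and sensory cortex also differed in guidance gene expression. The plexin Plxnd1 and the ligands Ntn5, Ntn4 and Sema7a were lower in motor cortex, and the semaphorin receptors Nrp1 and Nrp2 with their ligand Sema3c, the Slit receptor Robo1, Slit1 and Sema5a were higher there. With the mouse as a block, limma called 22 of the 64 members, 13 higher and 9 lower in motor cortex, against a background of 13.2% of all genes (7.67% higher and 5.56% lower). Processing day is not a term of this fit. The motor array of healthy mouse 4 and the sensory array of healthy mouse 1 were processed on the second day. In these 2 mice region and day cannot be told apart. The median was 0.04 in members and 0.02 in all genes. In 9 members motor exceeded sensory cortex in all 10 mice, as in 4.42% of all genes, and in 5 it was below in all 10, as in 3.25%.

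Among ligands lower in motor cortex, Ntn5, a netrin family member, read 9.50, 9.68 and 10.11 in motor cortex of EAE mice and 9.42, 9.81, 9.37 and 9.64 in that of healthy mice, against 10.50, 10.67 and 10.87 in sensory cortex of EAE mice and 10.55, 10.53, 10.59 and 10.55 in that of healthy mice. No motor array reached any sensory array. The difference was -0.97 ± 0.07 (SE, log2), a motor level 0.512 times the sensory level, with a limma adjusted p of 1.5e-06. EAE mouse 6 had the smallest gap, -0.39, and the other 9 mice had gaps of -0.72 to -1.25. Ntn4 followed at -0.47 ± 0.05 (limma adjusted p 2.3e-05), lower in 10 of 10 mice, with its other probe set at -0.19. Sema7a stood at -0.35 ± 0.04 and was lower in 10 of 10 mice, with its other probe set at -0.50. Efna5, a membrane-anchored ephrin that patterns cortical areas and thalamic input, stood at -0.29 ± 0.06 and Efna1 at -0.25 ± 0.06, lower in 9 and 8 of 10 mice, and Sema3a at -0.17 ± 0.04, lower in 9. EAE mouse 6 was the exception for Efna5 (0.17) and Sema3a (0.13), and also for the receptor Robo3 (0.02). For Efna1 the exceptions were EAE mouse 4 (0.09) and healthy mouse 2 (0.01).

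Among ligands higher in motor cortex, Sema5a stood at 0.59 ± 0.08 (limma adjusted p 0.000258), or 1.51 times the sensory level. Within a mouse its gap was 0.16 to 0.99 in EAE and 0.28 to 0.88 in healthy mice, higher in all 10. Slit1 was at 10.57, 10.87 and 11.00 in motor cortex of EAE mice and 10.62, 10.76, 10.70 and 10.48 in that of healthy mice, against 10.26, 10.45 and 10.57 in sensory cortex of EAE mice and 10.08, 10.28, 10.31 and 10.32 in that of healthy mice. The difference was 0.40 ± 0.05 (adjusted p 0.000105). Sema3c, a secreted ligand of the neuropilins, stood at 0.40 ± 0.04 (adjusted p 9.4e-06), Sema4a at 0.27 ± 0.06 and Ntn1 at 0.18 ± 0.05. Sema3c and Ntn1 each have 1 other probe set, at 0.07 and 0.04. Slit2, which was lower in EAE, did not pass the threshold between regions (0.05 ± 0.03).

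On the receptor side, Plxnd1 read 10.33, 10.46 and 10.69 in motor cortex of EAE mice and 10.66 to 10.77 in that of healthy mice, against 10.93, 11.04 and 11.12 in sensory cortex of EAE mice and 11.11 to 11.42 in that of healthy mice. Its difference was -0.57 ± 0.04 (limma adjusted p 6.85e-07), the smallest adjusted p of any member here, with the motor value lower in all 10 mice. Robo3 stood at -0.37 ± 0.05 and was lower in 9 of 10 mice, although its dimmer probe set stood at 0.01. Nrp1, the co-receptor of Sema3a and of vascular growth factor, gave 10.24, 10.58 and 10.88 in motor cortex of EAE mice and 10.93, 11.00, 10.88 and 10.70 in that of healthy mice. In sensory cortex it gave 9.78, 10.12 and 10.51 in EAE and 10.37, 10.51, 10.36 and 10.44 in healthy mice. It was 0.48 ± 0.05 higher in motor cortex (adjusted p 3.38e-05), in 10 of 10 mice, and its 3 other probe sets stood at 0.40 to 0.50. Nrp2 was 0.28 ± 0.04 higher and Robo1 0.44 ± 0.06 higher, each in all 10 mice. Ephb6 (0.32 ± 0.05), Ephb1 (0.29 ± 0.04), Epha6 (0.19 ± 0.04), Plxna1 (0.19 ± 0.04) and Plxnc1 (0.18 ± 0.03), the plexin of Sema7a, were also higher in motor cortex, so Sema7a and Plxnc1 differed in opposite directions. Of the 5 other probe sets of Plxnc1, 1 was higher at an unadjusted p under 0.05 and 4 stood at -0.08 to 0.00. Epha10 was lower by a small amount, -0.11 ± 0.03.

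Taken within each condition, the regional difference of Ntn5 was -0.947 in EAE mice and -0.997 in healthy mice. That of Plxnd1 was -0.55 in EAE mice and -0.60 in healthy mice, and that of Ntn4 was -0.48 in EAE mice and -0.45 in healthy mice. Nrp1 stood at 0.50 in EAE mice and 0.46 in healthy mice, and Sema5a at 0.63 in EAE mice and 0.54 in healthy mice. The test of the difference between the conditions, given above, called 0 members. EAE mice alone gave 15 called members, against 4.00% of all genes in that fit, and healthy mice alone 17, against 7.35% of all genes. In cohort 1 alone 14 members were called, against 2.87% of all genes, and in cohort 2 alone 13, against 5.51% of all genes. The 22 calls kept their sign in each cohort, which is no separate test, since both cohorts together gave the calls. Of the 22, 20 were called whichever mouse was left out, the exceptions being Epha10 and Ntn1.

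Genes of cortical layers differed in the same comparison, in which 7.67% of all genes were called higher and 5.56% lower in motor cortex. All 5 upper-layer markers were lower in motor cortex (median -0.35), among them Rorb, a transcription factor of layer 4, at -1.17 ± 0.05, and 2 of 4 deep-layer markers were higher, Fezf2 at 0.72 ± 0.06 and Bcl11b at 0.38 ± 0.05. The mean of the upper-layer list was 11.6 to 11.8 in EAE motor and 11.7 to 11.8 in healthy motor arrays, against 12.2 to 12.4 in EAE sensory and 12.15 to 12.23 in healthy sensory arrays. Of 6 markers of meninges 3 were lower in motor cortex (median -0.29), and of 7 mural cell markers 4 were (median -0.11). Astrocyte markers were lower in 3 of 8 (median -0.10, 7 of 8 below 0) and endothelial markers in 2 of 9 (median -0.07, 9 of 9 below 0), with 0 called higher in these 4 lists. The endothelial list stood at 9.35 to 9.59 in EAE motor and 9.62 to 9.80 in healthy motor arrays, against 9.39 to 9.62 in EAE sensory and 9.79 to 9.90 in healthy sensory arrays. Their part in the differences of the guidance genes was not tested.

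**Figure D3:**
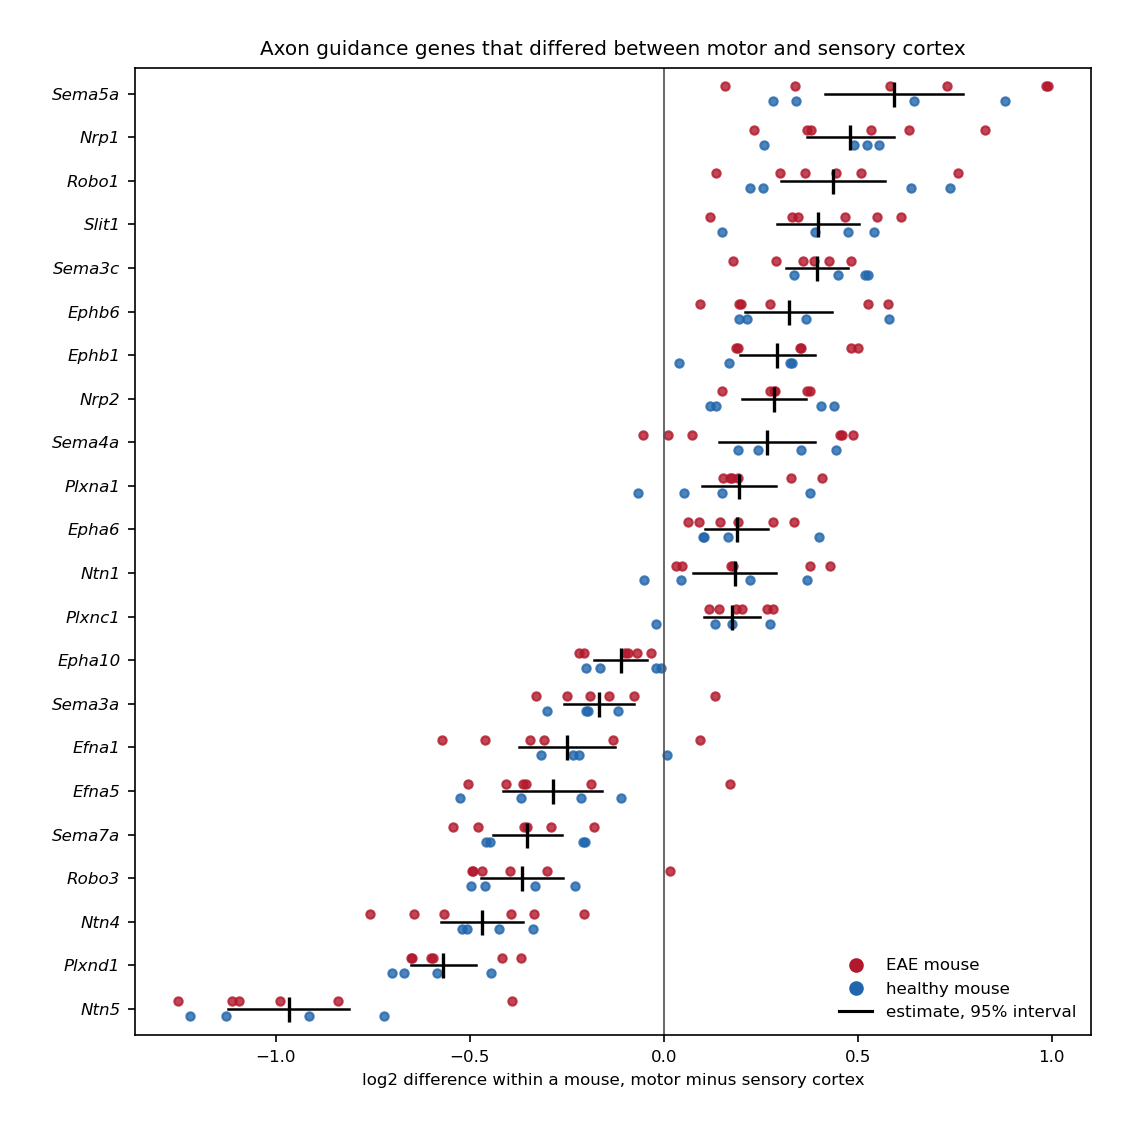
Log2 difference of motor minus sensory cortex within each mouse (horizontal axis) for the 22 members called, with EAE mice in red, healthy mice in blue and the estimate with its 95% interval in black. Values of EAE and healthy mice are intermingled in each row; Ntn5 lies farthest to the left and Sema5a farthest to the right.

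In all, 8 members were called in both the EAE and the regional comparison: Sema5a, Ntn1, Ephb1 and Ephb6 were lower in EAE and higher in motor cortex, Sema7a, Ntn4 and Plxnd1 lower in EAE and lower in motor cortex, and Epha10 higher in EAE and lower in motor cortex. Ntn4 stood at -0.47 for motor minus sensory and at -0.35 for EAE minus healthy, Plxnd1 at -0.57 between regions and -0.25 in EAE, and Sema7a at -0.35 between regions and -0.30 in EAE. The other 9 members called for EAE, among them Slit2, Sema4d and Sema5b, were not called between regions, and 14, among them Ntn5, Nrp1 and Robo1, were called between regions but not for EAE. Both comparisons use the same 20 arrays. The share of all genes called in both is not given here, so the 8 are a list and not a result about the members.

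**Figure D4:**
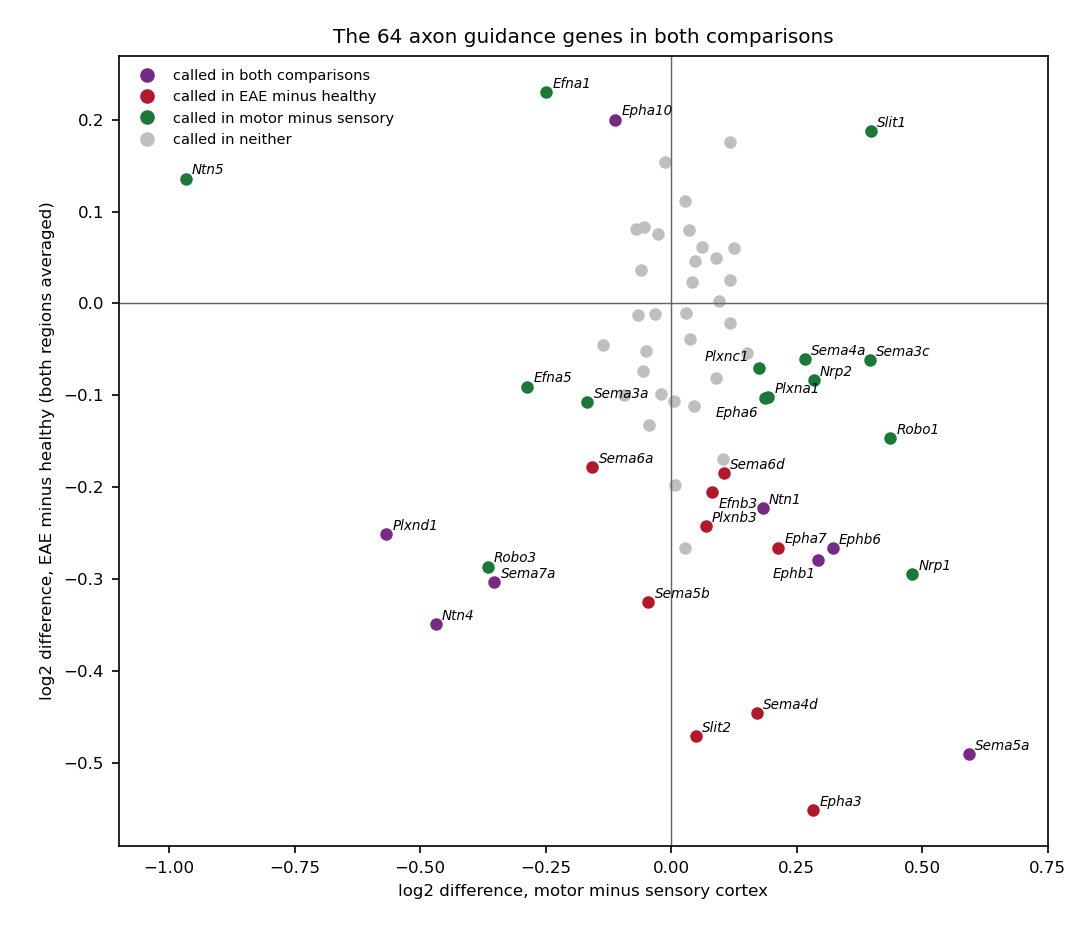
Each of the 64 members by its log2 difference of motor minus sensory cortex (horizontal axis) and of EAE minus healthy mice with both regions averaged (vertical axis), coloured by the comparison in which it was called. Most members called for EAE lie below 0 on the vertical axis, on either side of 0 horizontally.

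Genes that work with these ligands and receptors were examined in 4 lists. Of 20 netrin receptors and other guidance receptors and cues, 4 were called lower in EAE over both regions and 0 higher (median -0.12): Nfasc (fell by 0.33 ± 0.06), an adhesion molecule of the node of Ranvier, and Cntn2 (fell by 0.23 ± 0.05), L1cam (fell by 0.20 ± 0.04) and Ncam1 (fell by 0.18), adhesion molecules of axons. Of 43 cytoplasmic transducers 8 were called lower and 0 higher (median -0.07), among them Srgap1, which acts below Robo (fell by 0.30 ± 0.05), Crmp1, which relays Sema3a (fell by 0.25 ± 0.05), the exchange factor Vav3 (fell by 0.23 ± 0.04) and Rnd1, a GTPase that binds plexins (fell by 0.36). Against 5.64% of all genes called lower, these are 4 of 20 and 8 of 43.

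Of 18 myelin and scar inhibitors of axon growth and their receptors, 5 were called lower and 0 higher (median -0.02): the myelin glycoprotein Mag (fell by 0.45 ± 0.07), the matrix protein Tnc (fell by 0.45 ± 0.07), the proteoglycan Cspg5 (fell by 0.35 ± 0.05), and Lingo1 and Rtn4r, which form part of the Nogo receptor complex. Growth and regeneration genes gave 1 call in 15 (median -0.03), the stress-induced Gadd45a, which fell by 0.78 ± 0.11. These counts of 5 in 18 and 1 in 15 stand beside 5.64% of all genes called lower, and that of the growth list is near this background. Between regions, where 7.67% of all genes were called higher and 5.56% lower in motor cortex, the netrin receptor list of 20 had 6 members higher and 2 lower, with Unc5d, a netrin receptor of upper layers, at -0.81 ± 0.04 and Dcc, the attractive netrin receptor, at 0.62 ± 0.09. The transducer list of 43 had 6 higher and 4 lower, with the exchange factor Tiam1 at -0.58 ± 0.04 and Dpysl3 at 0.28 ± 0.04. The inhibitor list of 18 had 4 higher and 3 lower, with Rtn4rl2 at 0.33 ± 0.04 and the perineuronal net proteoglycan Acan at -0.35 ± 0.05, and the growth list of 15 had 4 higher and 0 lower, with the growth cone protein Gap43 at 0.59 ± 0.06.

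**Figure D5:**
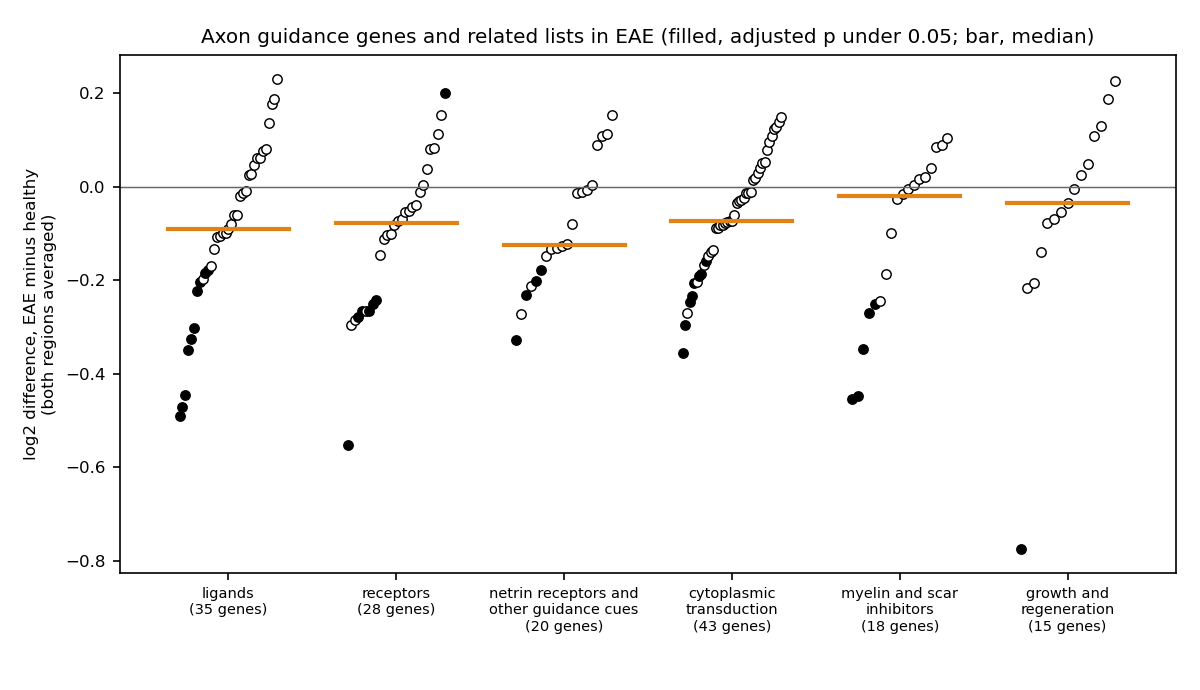
Log2 difference of EAE minus healthy mice, both regions averaged (vertical axis), for the guidance ligands, the receptors and 4 lists of related genes, each gene a point sorted by value, filled where the adjusted p is under 0.05, with the median as a bar. All medians lie between -0.12 and -0.02, and the filled points lie below 0 except for Epha10 among the receptors.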

How the data were processed

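Cortex RNA was hybridised to 20 one-colour Affymetrix arrays, and the authors deposited 1 log2 value for each of 45101 probe sets and array. Per the submitters' processing notes the tools were RMA and Partek, whose versions and settings are not given in the sources used here. The deposited values were used unchanged. Platform annotation gave 1 symbol to 34958 probe sets, several to 932 (not used), and 9211 were not listed. Symbols of all 64 members matched RefSeq through the Entrez ID. A gene was represented by its brightest probe set (mean of the 20 arrays), which left 18194 genes.

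Comparisons were fitted over all genes in R 4.3.3 by limma 3.58.1, as two-sided moderated tests (lmFit, eBayes) with Benjamini-Hochberg adjustment, and the threshold was an adjusted p of 0.05. EAE against healthy mice was fitted per region, on each mouse's mean and on each mouse's motor minus sensory value, with cohort as a covariate, and region with the mouse as a block. Arrays that carry the same animal number in the labels were taken as 1 mouse, and each array was a separate sample, since the closest pair within a group differed by 0.145 (root mean square, log2). The deviations of a mouse's motor and sensory arrays from their group means correlated at -0.03 to 0.59. Arrays of EAE and healthy mice that share a replicate number correlated at -0.25 to 0.40. These ranges overlap, so the correlations alone do not show which arrays share a mouse. Replicate numbers do not pair EAE with healthy mice, which are different animals. Fits were also run on simulated arrays, each drawn independently with the spread of healthy motor arrays, the tightest group. The simulated arrays held no mouse or cohort effect, so they do not test how the fits handle these. Alternatives were another normalization, a filter at the 25th percentile of gene means, other uses of the probe sets, no cohort term, trend and robust eBayes, each mouse left out, each cohort alone, no arrays of the second of 2 processing days, and a replicate block. The text names all called members, the 5 smallest p where fewer than 5 were called, a set of known ligand and receptor pairs, and up to 4 called genes of each related list, besides others given by value. Members and lists were chosen with earlier results of these data known.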

Additional observations from a re-analysis of the deposited data

Results flagged for a closer look

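In 9 of 160 groups of arrays checked (40 named members in 4 groups), 1 array stood apart from the rest of its group by Dixon's test at the 95% level. Chance flags about 1 in 20 such groups. In motor cortex of EAE mice, Epha10 was at 10.32 in mouse 1, below the other arrays at 10.50 to 10.58, and Sema5b was at 8.49 in mouse 2, above the others at 8.11 to 8.23. Both are the arrays through which EAE and healthy values of these genes overlapped. In sensory cortex of EAE mice, Epha4 was at 12.21 in mouse 6, above the others at 11.94 to 12.01. In motor cortex of healthy mice, Epha7 was at 10.48 in mouse 4, below the others at 10.93 to 10.96, and Sema4d was at 10.10 in mouse 2, above the others at 9.90 to 9.93. In sensory cortex of healthy mice, Robo3 was at 9.33 and Sema6a at 8.72 in mouse 2, above the others at 8.88 to 8.96 for Robo3 and 8.55 to 8.57 for Sema6a. Slit1 was at 10.08 in mouse 1, below the others at 10.28 to 10.32, and Plxnb1 was at 10.17 in mouse 4, below the others at 10.23 to 10.24. Healthy mouse 2 accounts for 3 of the 9 values. The motor array of healthy mouse 4 and the sensory array of healthy mouse 1 are the 2 processed on the second day, and hold the Epha7 and Slit1 values.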

How the results depend on the processing

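No call changed direction under any alternative run, but all of these runs reuse the arrays that gave the calls. Over both regions (17 members called) the count was 10 after quantile normalization, 11 with a replicate block, 7 to 18 with 1 mouse left out, 0 in cohort 1, 3 in cohort 2 and 0 without the second-day arrays. In motor cortex (6 called) it was 2 with all probe sets tested, 0 to 5 with 1 mouse left out, 0 in each cohort alone, 2 without the second-day arrays and 7 with the replicate block. In sensory cortex (4 called) it was 9 with the filter on dim genes, 9 with trend and robust eBayes, 2 with the mean of probe sets, 1 with all probe sets tested, 0 to 11 with 1 mouse left out, 0 in cohort 1, 2 in cohort 2 and 0 with the replicate block. The block used numbers shared by different animals, so these counts say nothing of effect size. The count between regions (22 called) was 14 in cohort 1, 13 in cohort 2, 19 without the mouse block and 21 to 25 with 1 mouse left out. The difference of the EAE effects gave 0 calls in every alternative, with limma. A called member kept its call in 201 of 340 checks over both regions, 49 of 120 in motor cortex, 35 of 80 in sensory cortex and 412 of 462 between regions. These are counts of members alone, so a change in them cannot be told from a change over all genes. Cohorts alone and fits with a mouse left out hold fewer samples, and the cause of the other changes was not tested. The number of mice and the signal of the 4 dim members limit what can be seen.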
